A study of Mus musculus with 8 samples.

Results

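The genes described here are 10 genes that denervated skeletal muscle switches on: the acetylcholine receptor subunits Chrna1, Chrnb1, Chrng and Chrnd, the myogenic factors Myog, Myod1 and Myf6, and Ankrd1, Sln and Runx1. They were chosen by their known role and by their higher values in cut than in uncut nerve on these same arrays, which earlier results had shown. They are 10 of 18194 genes that the array annotation gives a probe set of their own, and they are read on 20 of the 45101 probe sets. The study concerned c-Jun, a transcription factor of Schwann cells, the glia of peripheral nerve, and its part in the response to injury. The sciatic nerve of adult mice was transected at the sciatic notch, and 7 days later RNA was taken from a 10 mm piece of the distal stump and from the intact nerve of the opposite leg. There were 4 groups of 2 arrays: c-Jun mutant cut, c-Jun mutant uncut, control cut and control uncut nerve, where the sample labels call the mutants c-Jun KO and the controls WT. Each array held nerves pooled from 4 or 6 mice. As the intact nerves came from the opposite leg of transected mice, cut and uncut pools of a genotype may share animals, but the labels do not say that pools of the same number do. The labels call the samples Schwann cells, while the design names whole nerve segments. The labels name neither the allele nor what drives the deletion.

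When a motor axon is lost, the muscle fibre it served changes its gene expression within days. Electrical activity normally keeps the receptor genes off away from the synapse; without it, fibres make acetylcholine receptors along their whole length, including the embryonic subunit encoded by Chrng. The myogenic factors, basic helix-loop-helix proteins that bind the E-box CANNTG, return in the same fibres and bind in the receptor gene promoters. The receptor subunits and myogenic factors are known from muscle. Runx1 is also a factor of blood cells, and Ankrd1 is also a target of the co-activator YAP. Which cells of the nerve segments made these RNAs was not tested.

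To show where such factors could bind, the 250 bases upstream of the annotated start are given for 4 subunit and factor genes and for Ankrd1, from RefSeq, build GRCm38.p6, each 5′ to 3′ on the gene's own strand. Capitals mark CANNTG, which reads the same form on both strands, and CATTCC or its complement GGAATG, the core of the M-CAT element.
Chrna1, chr2:73580339-73580588, minus strand: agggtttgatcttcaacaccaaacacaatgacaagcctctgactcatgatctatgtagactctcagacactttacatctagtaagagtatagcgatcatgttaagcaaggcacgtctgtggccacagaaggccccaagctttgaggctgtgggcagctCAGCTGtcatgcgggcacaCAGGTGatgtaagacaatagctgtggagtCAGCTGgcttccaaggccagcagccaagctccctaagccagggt
Chrnb1, chr11:69795938-69796187, minus strand: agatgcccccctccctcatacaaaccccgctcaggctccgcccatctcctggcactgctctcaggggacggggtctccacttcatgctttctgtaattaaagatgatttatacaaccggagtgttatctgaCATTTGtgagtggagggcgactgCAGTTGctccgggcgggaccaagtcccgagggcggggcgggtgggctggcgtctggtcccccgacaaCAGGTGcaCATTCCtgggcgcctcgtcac
Chrng, chr1:87205561-87205810, plus strand: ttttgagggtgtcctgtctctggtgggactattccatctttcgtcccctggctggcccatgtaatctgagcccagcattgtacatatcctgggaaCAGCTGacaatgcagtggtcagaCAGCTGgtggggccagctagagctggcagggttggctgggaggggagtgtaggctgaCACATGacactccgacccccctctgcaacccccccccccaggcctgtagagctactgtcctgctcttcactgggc
Myog, chr1:134289754-134290003, plus strand: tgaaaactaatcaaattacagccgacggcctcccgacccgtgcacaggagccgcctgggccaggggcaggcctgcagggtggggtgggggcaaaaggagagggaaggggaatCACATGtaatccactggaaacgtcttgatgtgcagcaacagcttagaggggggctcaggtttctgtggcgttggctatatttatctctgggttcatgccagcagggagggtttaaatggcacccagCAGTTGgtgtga
Ankrd1, chr19:36119845-36120094, minus strand: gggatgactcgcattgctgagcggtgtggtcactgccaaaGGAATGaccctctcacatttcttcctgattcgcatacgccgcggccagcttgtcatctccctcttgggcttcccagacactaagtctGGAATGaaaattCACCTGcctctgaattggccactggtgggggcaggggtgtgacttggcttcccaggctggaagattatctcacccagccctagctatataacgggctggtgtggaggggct
The windows of Chrna1, Chrnb1 and Chrng held 3 CANNTG matches each, as did 12.2% of the 32851 promoter windows of the table at this length (3 or more). The window of Myog held 2, where 31.8% of all windows held 2 or more. That of Ankrd1 held 1, which lies 111 bases before the start, where 66.2% of all windows held at least 1. The narrower form CAGCTG occurred in 13.0% of all windows and 2 or more times in 1.26%. It stood in the Chrna1 window 92 and 44 bases before the start, and in the Chrng window 155 and 132 bases before it. CATTCC was present 2 times in the Ankrd1 window, against 2 or more times in 1.02% of all windows. A match describes the letters only. RefSeq windows matched 6 of the 10 genes. Those of Runx1, not printed, held 0 and 3 CANNTG matches. The window of Chrne, the adult epsilon subunit gene and not a member, held 1 CAGCTG.

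Every array carried skeletal muscle RNA beside that of the nerve. The 24 adult contractile genes had a mean log2 value of 12.04 and 12.20 in mutant cut, 10.36 and 9.56 in mutant uncut, 11.36 and 11.93 in control cut and 10.18 and 10.39 in control uncut nerve, and each of them exceeded the 25th percentile on at least 1 array. Skeletal actin, Acta1, read between 12.85 and 14.55. Of 5 cardiac markers Myh6 and Nppa lay below the 25th percentile on all 8 arrays and Myl7 on 6. Nkx2-5 (6.07 to 6.44) and Tnni3 (5.68 to 6.92) were below it on none. Schwann cell markers were present throughout (4 measured, mean 11.29 to 11.64). Jun, the targeted gene, read 10.39 and 10.80 in mutant cut against 11.88 and 11.96 in control cut nerve (log2 difference -1.33, SE 0.14, limma adjusted p = 0.0087), and 9.62 and 9.59 in mutant uncut against 9.58 and 9.70 in control uncut nerve. Whether its probe set lies in the deleted part was not checked.

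Of the receptor subunits Chrna1 had the highest difference and Chrnd the lowest. The alpha subunit gene Chrna1, which encodes the acetylcholine-binding chain, had log2 values of 10.95 and 11.73 in mutant cut nerve against 6.13 and 6.28 in mutant uncut nerve. In control mice it read 10.37 and 11.80 in cut against 6.26 and 6.59 in uncut nerve. All 4 cut arrays stood far above all 4 uncut arrays, by 5.14 in mutant and 4.66 in control nerve (SE 0.44 each, 35.3-fold and 25.3-fold). Since the members were chosen with this response known, differences between cut and uncut nerve are given as a description, without a test. In whole segments more cells of a type and more RNA per cell cannot be told apart.

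The other subunits moved less. Chrnb1, the beta subunit, read 7.76 and 8.89 in mutant cut against 6.42 and 6.46 in mutant uncut nerve, and 7.60 and 8.73 in control cut against 6.60 and 6.51 in control uncut nerve (differences 1.88 and 1.61, SE 0.42). The control difference was 1.05 without control cut replicate 2. Chrng, the embryonic gamma subunit, read 7.21 and 7.56 in mutant cut against 6.45 and 6.43 in mutant uncut nerve, and 6.71 and 7.92 in control cut against 6.31 and 6.45 in control uncut nerve. Its difference was 0.94 in either genotype (SE 0.34), but the control value was 0.34 without control cut replicate 2 and 1.54 without control cut replicate 1. The lowest cut array lay only a little above the highest uncut one. Chrnd, the delta subunit, had the smallest difference of the 10 genes: 7.01 and 7.14 in mutant cut against 6.76 and 6.95 in mutant uncut nerve, and 6.97 and 7.70 in control cut against 6.81 and 6.80 in control uncut nerve (0.22 and 0.53, SE 0.22). Its control difference was 0.16 without control cut replicate 2 and 0.89 without control cut replicate 1, and its mutant difference was 0.13 without mutant uncut replicate 1. The cut groups sat above the uncut groups for each subunit, but for Chrnd the lowest cut value, 6.97, was only just above the highest uncut value, 6.95. Chrnd and Chrng are neighbours on chromosome 1 (GRCm38.p6), with 5740 bases between the end of the first and the start of the second. A second Chrng probe set, dim on all arrays, gave 1.23 in mutant and 1.18 in control nerve, and another gave 0.01 and -0.02.

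Chrne, the adult epsilon subunit that takes the place of gamma at the mature synapse, did not pass the filter on low values. It read 6.39 and 6.44 in mutant cut against 6.34 and 6.10 in mutant uncut nerve, and 6.32 and 6.40 in control cut against 6.15 and 6.28 in control uncut nerve. Its cut arrays thus spanned only 6.32 to 6.44. Of 10 neuronal nicotinic subunit genes on the array none passed the filter, and their values never exceeded 6.59. Among the nicotinic genes on the array, the 4 muscle-type subunits Chrna1, Chrnb1, Chrng and Chrnd were those above the filter. Chrna1, Chrnb1 and Chrng passed it through cut arrays alone, where the rule had them high, so nothing is read from this contrast.

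All 3 myogenic factors were higher in cut nerve. Myf6, also called MRF4, the factor most abundant in adult fibres, read 11.27 and 12.12 in mutant cut against 6.46 and 5.98 in mutant uncut nerve, and 10.64 and 11.96 in control cut against 5.58 and 6.69 in control uncut nerve. Its difference of 5.47 ranked 2 among 12093 genes in mutant nerve, and 5.17 ranked 9 in control nerve (SE 0.51). Myog, myogenin, which drives differentiation and the atrophy programme, read 8.94 and 9.40 in mutant cut against 5.22 and 5.09 in mutant uncut nerve, and 7.74 and 10.38 in control cut against 5.20 and 5.56 in control uncut nerve. The cut pools of control nerve lay 2.64 apart, so the control difference of 3.68 (SE 0.70) fell to 2.36 without replicate 2 and was 5.0 without replicate 1. The mutant difference was 4.01. Myod1, the determination factor MyoD, read 7.50 and 8.19 in mutant cut against 5.39 and 5.49 in mutant uncut nerve, and 6.62 and 7.95 in control cut against 5.25 and 5.56 in control uncut nerve (2.40 and 1.87, SE 0.40). The control difference was 1.21 without control cut replicate 2. Myf5, the remaining member of the family, lay below the 25th percentile on all arrays, with 3.79 and 4.85 in mutant cut, 3.25 and 3.45 in mutant uncut, 3.49 and 4.71 in control cut and 3.08 and 3.19 in control uncut nerve.

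The stress genes held the highest member. Ankrd1, a titin-associated ankyrin repeat protein of strained muscle, read 11.20 and 12.67 in mutant cut against 5.93 and 5.46 in mutant uncut nerve, and 10.02 and 12.92 in control cut against 5.71 and 5.55 in control uncut nerve. Its mutant difference of 6.24 was the highest of all 12093 genes, and its control difference of 5.84 ranked 5 (SE 0.85). A second Ankrd1 probe set gave 6.40 and 6.77, though its control uncut values, 4.55 and 4.66, lay below the 25th percentile of their arrays. Sln, sarcolipin, a small membrane protein that slows the SERCA calcium pump, read 9.81 and 11.65 in mutant cut against 5.71 and 5.24 in mutant uncut nerve, and 10.26 and 10.94 in control cut against 6.35 and 5.18 in control uncut nerve (5.26 and 4.83, SE 0.60). The second Sln probe set stayed between 4.84 and 5.08 on every array. Runx1, a transcription factor of denervated muscle and also of blood cells, read 8.83 and 9.11 in mutant cut against 6.75 and 6.73 in mutant uncut nerve, and 8.55 and 9.31 in control cut against 6.32 and 6.86 in control uncut nerve (2.23 and 2.34, SE 0.26). Its 6 probe sets disagreed in size: the differences ran down to 0.04 in mutant and -0.18 in control nerve, and the mean of its 5 kept probe sets gave 1.44 and 1.68.

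**Figure D1:**
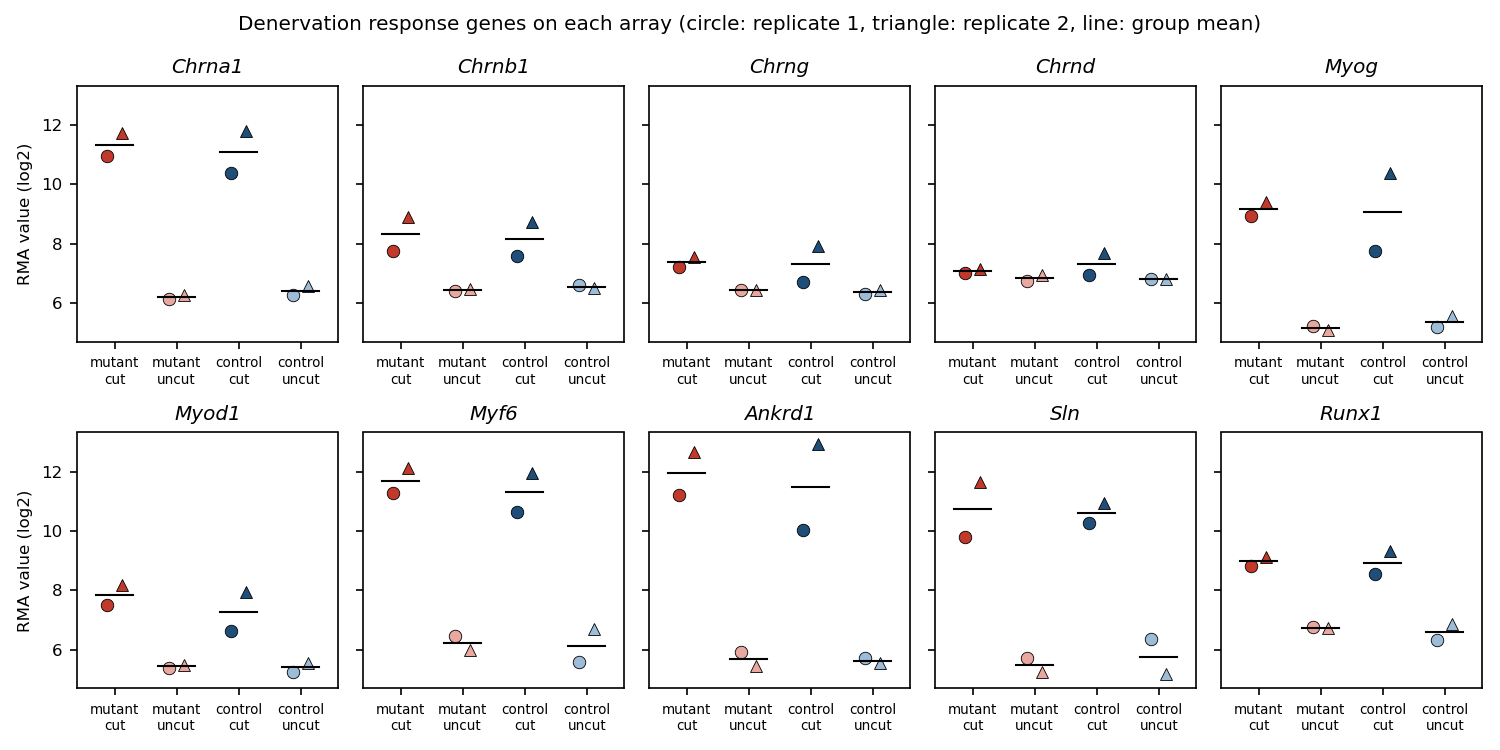
RMA value (log2) of each of the 10 genes on the 8 arrays, by group, with circles for replicate 1, triangles for replicate 2 and lines for group means. Cut arrays lie above uncut arrays in every panel, by most for Ankrd1 and by least for Chrnd, and the triangles of cut nerve lie above the circles.

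For all 10 genes each cut array was higher than each uncut array. Groups did not overlap in this direction for 35.8% of all genes in mutant and 41.5% in control nerve, and since the rule used this contrast nothing is read from the count. The difference was at least 2-fold for 8 of 10 in either genotype, against 6.14% of all genes in mutant and 7.03% in control nerve, and the exceptions were Chrng and Chrnd. The median difference of the 10 was 3.21 in mutant and 3.01 in control nerve, where the medians over all genes were -0.0013 and 0.054. The 2-fold count and the medians rest on the same contrast, so nothing is read from them either. In 8 of the 10 genes fewer than 2 uncut arrays reached the array median, so these passed the filter through cut nerve alone. For 9 genes mutant cut nerve had the highest mean, followed by control cut nerve and then the uncut groups, and for Chrnd control cut nerve was highest. Neighbouring groups of one injury state overlapped in all cases but that of Chrnb1 in uncut nerve.

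**Figure D2:**
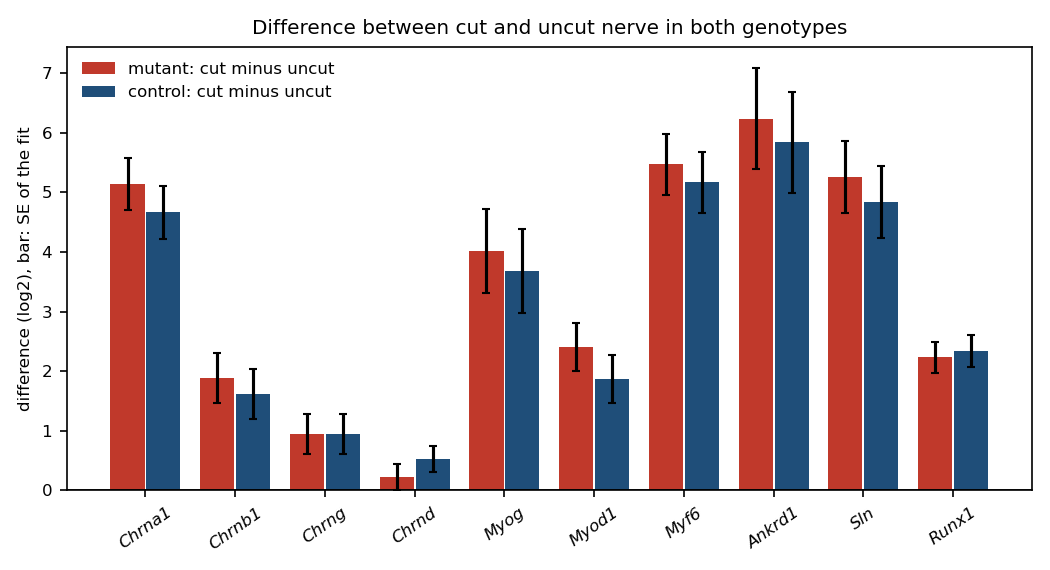
Difference between cut and uncut nerve (log2) for each gene, in mutant and in control mice, with bars for the SE of the fit. Heights run from 0.22 (Chrnd, mutant) to 6.24 (Ankrd1, mutant), and the SE of the genotypes overlap for each gene.

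The comparison between genotypes was not part of the rule, although the genes were chosen with results of these arrays known. No member was called in mutant against control cut nerve with limma, where 1.09% of all genes were, and 0 of 10 had an unadjusted p under 0.05, against 8.61% of all genes. Differences ran from -0.26 for Chrnd to 0.56 for Myod1, 9 of 10 positive. Mutant and control cut arrays overlapped for every member, whereas the groups stood apart with the mutant higher in 14.5% and lower in 20.1% of all genes. Myod1 had the lowest adjusted p, 0.866, with a 95% interval of -0.37 to 1.50. The interval of Ankrd1 was the widest, -1.51 to 2.44 around 0.46, and that of Runx1 ran from -0.57 to 0.66. A difference of 2-fold in either direction therefore lay inside the intervals of Myog, Ankrd1 and Sln and was not excluded with these pools. A 2-fold higher value in the mutant also lay inside those of Chrna1, Chrnb1, Myod1 and Myf6 (upper limits 1.27, 1.14, 1.50 and 1.59). The Myog difference of 0.11 became -1.21 without control cut replicate 1 and 1.43 without control cut replicate 2 (adjusted p = 0.089 in the second case).

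In uncut nerve the differences between mutant and control lay between -0.30 and 0.15, none was called (0% of all genes were called, and 2.66% had an unadjusted p under 0.05, against 0 of 10 members), and the lowest unadjusted p was 0.583. For 7 of the 10 genes no uncut array lay above its array median. Differences between such dim values are compressed, so nothing is read from the lack of calls in uncut nerve. The interaction below also uses these uncut values. Chrnb1 alone had groups that did not overlap, with 6.42 and 6.46 in mutant against 6.60 and 6.51 in control uncut nerve (-0.11, adjusted p = 0.9997), as did 9.25% of all genes in that direction and 17.9% in the other. The response to injury, taken as the mutant difference minus the control difference, ranged from -0.30 to 0.53. None of the 10 was called (0.165% of all genes were, and 6.04% had an unadjusted p under 0.05, against 0 of 10), with a lowest unadjusted p of 0.347.

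**Figure D3:**
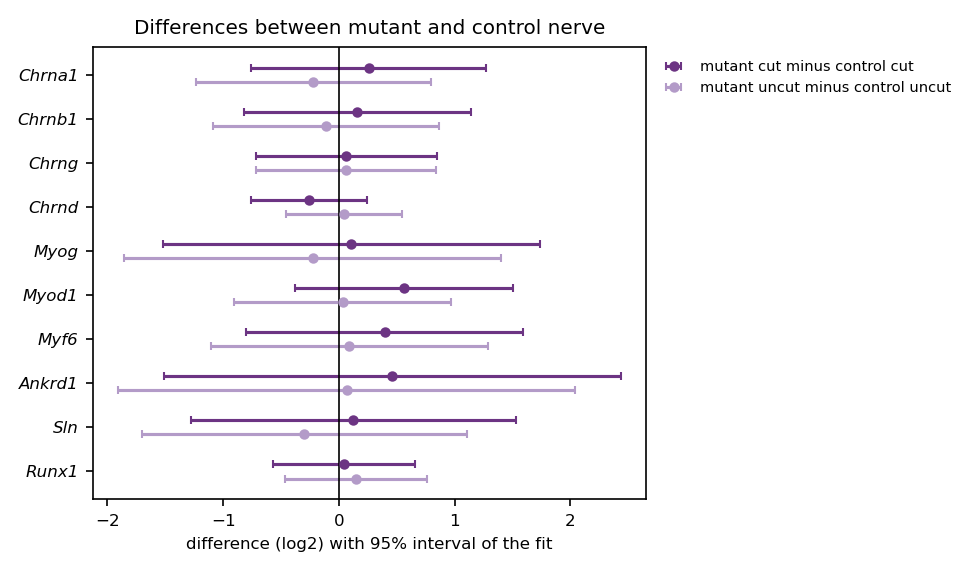
Difference between mutant and control (log2) for cut and for uncut nerve, with the 95% interval of the fit. Every interval includes 0, and the widest, for Ankrd1 in cut nerve, runs from -1.51 to 2.44.

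Pools of cut nerve differed from each other. In both genotypes replicate 2 was above replicate 1 for 10 of 10 members, as it was for 19.3% of all genes. The gap was 1.46 in mutant and 2.90 in control cut nerve for Ankrd1, 1.84 and 0.67 for Sln, and 0.46 and 2.64 for Myog. It was at least 1 for 3 members in mutant and 7 in control cut nerve, where 0.43% of all genes (52 of 12093) reached this in either group. Their median gap was 0.74 in mutant cut, -0.02 in mutant uncut, 1.26 in control cut and 0.23 in control uncut nerve. The contractile genes had median gaps of 0.54 in mutant cut, -0.81 in mutant uncut, 0.39 in control cut and 0.79 in control uncut nerve. In uncut nerve the contractile genes thus had the larger gaps. The members were dim there, with no uncut array above its median for 7 of 10, and gaps between dim values are compressed. Variability of the 2 sets in uncut nerve is therefore not compared. The part of the contractile genes in the members' values was not tested.

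Among the contractile genes the slow-fibre myosin Myh7, chosen after its values were seen, read 10.16 and 6.31 in mutant cut, 5.68 and 6.53 in mutant uncut, 5.81 and 6.94 in control cut and 8.83 and 7.15 in control uncut nerve. The slow troponin Tnnt1, also chosen afterwards, read 10.75 and 8.40, 6.56 and 7.12, 7.08 and 8.27, and 9.50 and 7.74 in the same order. Both were highest in mutant cut replicate 1, where all 10 members stood below replicate 2.

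**Figure D4:**
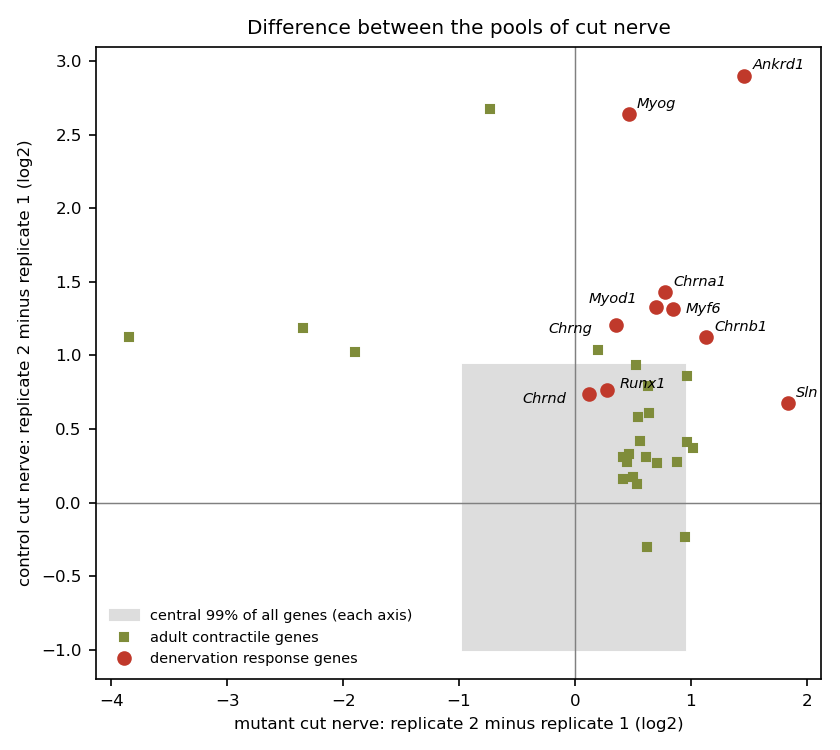
Replicate 2 minus replicate 1 (log2) in mutant cut nerve against the same in control cut nerve, 1 point per gene, with a grey box for the central 99% of all genes on each axis. All 10 members lie above 0 on both axes, Ankrd1 at 1.46 and 2.90, while contractile genes spread further to the left, as far as Myh7 at -3.85.

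Other muscle genes were read in the same fit, in lists drawn up by known role. Each count of a list, here and below, stands beside the shares over all genes. These were 18.1% risers and 17.8% fallers in mutant nerve, and 22.8% risers and 17.5% fallers in control nerve. Contractile genes rose in 22 of 24 cases in mutant nerve (18.1% of all genes rose) and in 18 of 24 in control nerve (22.8% rose), none fell, and their medians were 2.04 and 1.63. Myoglobin, Mb, rose by 4.11 in mutant and 3.02 in control nerve (SE 0.56, adjusted p = 0.0013 and 0.0044), Mybpc1 by 3.44 and 2.40, and Neb, the thin filament ruler nebulin, by 2.98 and 2.64. The size for Mb depended on the processing: other settings without leaving out an array gave as little as 2.10 in mutant and 1.54 in control nerve. Both calls still passed there. Actn2 rose by 3.15 in mutant and 1.86 in control nerve, and Myom2 rose by 2.66 and 2.26. Their control calls did not pass when control cut replicate 2 was left out (adjusted p = 0.108 for Actn2 and 0.0697 for Myom2), nor without control uncut replicate 2 for Actn2 (0.113) and control uncut replicate 1 for Myom2 (0.0728). The members' median difference exceeded that of the contractile genes by 1.17 in mutant and 1.38 in control nerve. Chrna1, Myf6, Ankrd1 and Sln lay above every contractile gene in both genotypes. As the members were chosen with this contrast known, nothing is read from their place above the contractile genes. Of the 4 measured developmental sarcomere genes 3 rose in mutant and 2 in control nerve. Myh3, embryonic myosin, rose by 2.36 in mutant nerve and stood at 1.39 in control nerve, which did not pass (adjusted p = 0.0538, and 0.0329 with the replicate number as a block). Myl4 (2.29 in mutant, 2.47 in control nerve) and Tnnt2 (1.94 and 1.58) also rose in both genotypes, but their mutant calls were lost without mutant cut replicate 2 (adjusted p = 0.107 and 0.109) and their control calls without control cut replicate 2 (0.0719 and 0.197), among other arrays.

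**Figure D5:**
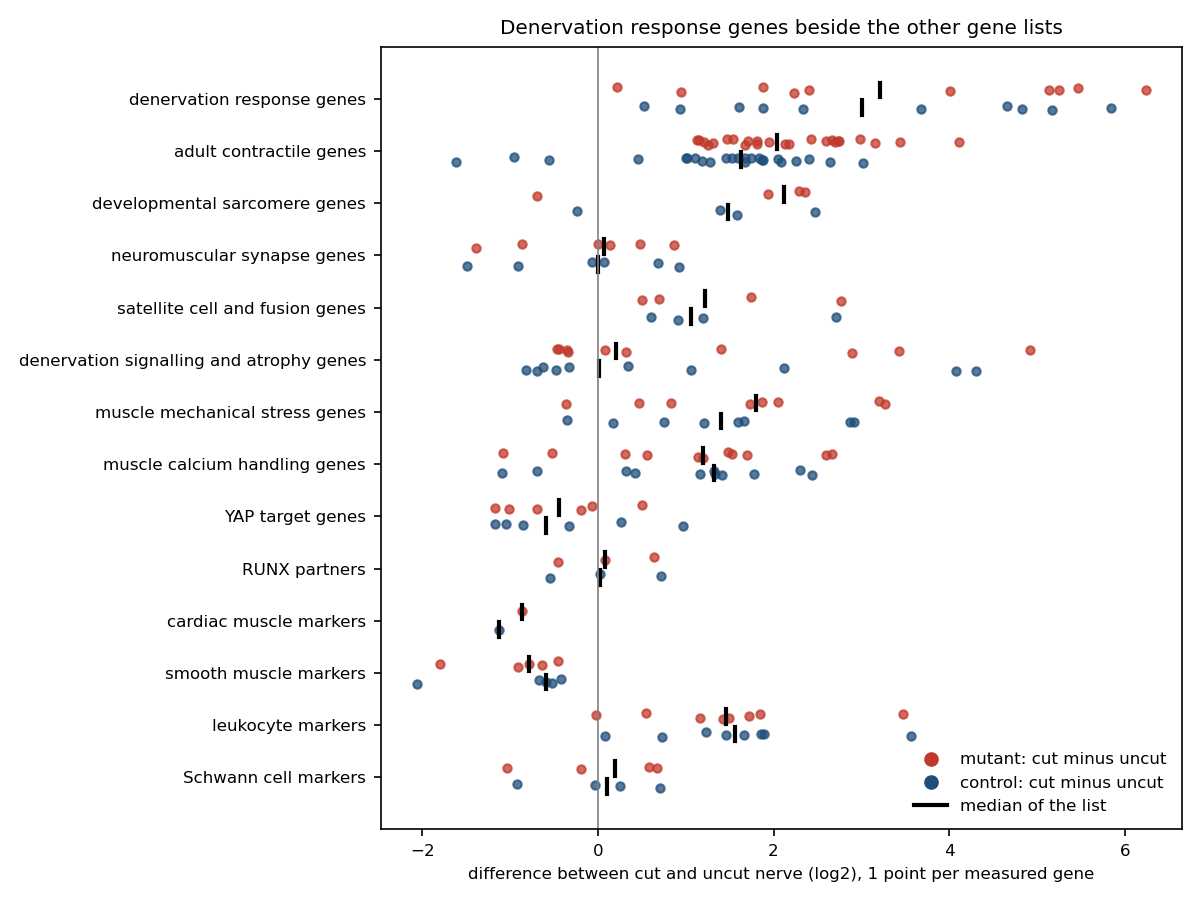
Difference between cut and uncut nerve (log2) for each measured gene of the denervation response genes and the other lists, mutant above control within a row, with black marks for list medians. The 10 members have the highest medians, 3.21 and 3.01, and the medians of smooth muscle markers lie below 0. The members were chosen with this difference known, so nothing is read from their rank.

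Genes of denervation signalling and atrophy went both ways. Of 10 measured, 4 rose in mutant nerve and none fell, and in control nerve 4 rose and 2 fell (17.8% and 17.5% of all genes fell). The fallers in control nerve were Foxo1 (-0.82, adjusted p = 0.0074) and Ncam1 (-0.70, adjusted p = 0.026). In mutant nerve they stood at -0.47 and -0.34, which did not pass. Fbxo30, Hdac9, Foxo3 and Cdkn1a were called in neither genotype. The risers were the same 4 genes in both: Trim63, the ubiquitin ligase MuRF1, by 4.92 and 4.31 (SE 0.42, adjusted p = 0.00012 and 0.0002), Gadd45a, a stress-induced gene of denervated fibres, by 3.43 and 4.08, Fbxo32, the ligase atrogin-1, by 2.89 and 2.12, and Hdac4, a repressor through which lost activity reaches the receptor genes, by 1.40 and 1.06. The Fbxo32 call in control nerve was lost without control uncut replicate 1 (adjusted p = 0.052). Trim63 read 11.90 and 12.41 in mutant cut against 7.71 and 6.76 in mutant uncut nerve, and 11.18 and 12.11 in control cut against 6.98 and 7.69 in control uncut nerve. Again no cut array reached down to an uncut one. Dach2, a repressor of the same pathway, lay below the 25th percentile on all arrays.

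Synapse scaffold genes went both ways. Of 6 measured, 2 fell in mutant nerve, and in control nerve 1 rose and 2 fell. Utrn, utrophin, fell by 1.39 in mutant and 1.49 in control nerve (SE 0.16), Rapsn, rapsyn, which clusters the receptor, fell by 0.87 and 0.91 (SE 0.17), and the agrin receptor Lrp4 rose by 0.93 in control nerve and stood at 0.47 in mutant nerve, which did not pass (adjusted p = 0.0649, and 0.0267 without either control uncut array). Musk, the kinase that agrin activates, stood at 0.87 in mutant nerve, which did not pass. Utrophin and Lrp4 are also expressed outside muscle.

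Stress and calcium handling genes rose in part. Of 8 measured mechanical stress genes 5 rose in mutant and 4 in control nerve: Ankrd23, a relative of Ankrd1, by 3.27 and 2.91, the small heat shock protein Hspb7 by 3.21 and 2.87, and the filamin Flnc by 1.87 and 1.60. Csrp3 stood at 1.21 in control nerve (adjusted p = 0.124, and 0.0164 without control cut replicate 1) and rose by 2.05 in mutant nerve, a call lost without any one of the 4 mutant arrays (adjusted p = 0.0772 to 0.0888). Xirp1 rose by 0.83 in mutant and 0.75 in control nerve. The mutant call missed the threshold on leaving out mutant cut replicate 2 (adjusted p = 0.175), mutant uncut replicate 1 (0.0699), mutant uncut replicate 2 (0.153) or either control uncut array (0.0506). The control call missed it on leaving out control cut replicate 2 (adjusted p = 0.21), control uncut replicate 1 (0.184), control uncut replicate 2 (0.0882) or either mutant uncut array (0.0589). Of 11 calcium handling genes 7 rose and 1 fell in mutant nerve, and 8 rose and 2 fell in control nerve. Ryr1, the calcium release channel, rose by 2.67 and 2.44 and its voltage sensor Cacna1s by 2.60 and 2.30. Mrln, myoregulin, which like sarcolipin acts on the calcium pump, rose by 1.52 and 1.78, the first call lost without mutant cut replicate 2 (adjusted p = 0.0817) or mutant uncut replicate 2 (0.0759). Jph1 rose by 1.70 in mutant and 1.33 in control nerve, and the pump gene Atp2a1 by 1.49 and 1.41. Without mutant cut replicate 2 or mutant uncut replicate 2 the mutant calls were lost for Jph1 (adjusted p = 0.0585 and 0.071) and Atp2a1 (0.139 and 0.142). The control calls were lost without control cut replicate 1 (0.0676 for both), control cut replicate 2 (0.113 for Jph1 and 0.119 for Atp2a1) or control uncut replicate 1 (0.15 and 0.153).

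Satellite cell genes were only partly present. Pax7, the marker of muscle stem cells, and the fusion gene Mymx lay below the 25th percentile on all arrays, as Myf5 did. All 4 measured genes of the list rose in both genotypes. These were Des, desmin, the muscle intermediate filament (2.77 in mutant and 2.71 in control nerve, SE 0.21), Mef2c, Itga7 and Cdh15 (1.75, 0.50 and 0.70 in mutant, 1.20, 0.91 and 0.61 in control nerve). The mutant calls of Mef2c, Cdh15 and Itga7 were lost without mutant cut replicate 2 (adjusted p = 0.0577, 0.129 and 0.113), and the control calls of Mef2c and Cdh15 without control cut replicate 2 (0.195 each), among other arrays.

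Lists for other roles of single members were set beside them. Ankrd1 is also a target of the co-activator YAP. Of 6 YAP target genes 1 rose and 3 fell in each genotype. Of all genes 18.1% rose and 17.8% fell in mutant nerve, and 22.8% rose and 17.5% fell in control nerve. Ajuba fell by 1.17 in mutant and 1.05 in control nerve, Amotl2 by 1.02 and 1.17 and Lats2 by 0.69 and 0.85, while Axl rose by 0.51 and 0.97. The part of YAP in the Ankrd1 values was not tested. The mutant call of Lats2 was lost without mutant cut replicate 2 (adjusted p = 0.056), and that of Axl without either mutant cut array (0.13 and 0.072) or mutant uncut replicate 2 (0.171). Runx1 works with Cbfb, which rose by 0.64 and 0.71, while Runx3 stayed between 6.59 and 6.88 on all arrays. Runx1t1 fell by 0.45 in mutant and 0.55 in control nerve, the mutant call lost without any one mutant array (adjusted p = 0.0634 to 0.151) and the control call without control cut replicate 1 (0.0772) or control uncut replicate 2 (0.0862).

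Leukocyte markers rose with Runx1 in 7 of 8 cases in either genotype, with Cd68 at 3.48 and 3.57, Aif1 at 1.72 and 1.90, Itgam at 1.50 and 1.86, and Adgre1 at 1.84 and 1.67 (SE up to 0.25). Their mean level was 9.78 and 9.56 in mutant cut against 8.36 and 8.07 in mutant uncut nerve, and 9.72 and 9.73 in control cut against 8.04 and 8.29 in control uncut nerve, and each marker exceeded the 25th percentile on at least 1 array. Their part in the Runx1 values was not tested. Smooth muscle markers fell, 4 of 5 in mutant and 3 of 5 in control nerve. Smtn fell by 1.80 and 2.06, Myh11 by 0.79 and 0.67 and Acta2 by 0.63 and 0.52, and Cnn1 by 0.91 in mutant nerve, with -0.59 in control nerve, which did not pass (adjusted p = 0.12, and 0.0349 without control uncut replicate 1). Apart from Smtn these calls were each lost without mutant cut replicate 2 in mutant nerve (adjusted p = 0.0928 to 0.169) and without control uncut replicate 2 in control nerve (0.186 and 0.229), among other arrays. The cardiac troponin Tnni3, the single cardiac marker above the filter, fell by 0.87 and 1.13. Schwann cell markers went both ways in mutant nerve, with 2 of 4 risers and 1 faller, and in control nerve 1 rose and 1 fell. S100b fell by 1.04 and 0.92 and Cdh19 rose by 0.67 and 0.70, and Erbb3 stood at 0.25 in control nerve, which did not pass, and rose by 0.59 in mutant nerve, a call lost without either mutant cut array (adjusted p = 0.101 and 0.0867) or mutant uncut replicate 1 (0.147).

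The genes whose profile over the 8 arrays was most like the mean profile of the 10 members, by root mean square distance of centred log2 values, were Dusp13 (0.14), Acsl6 (0.15), Rrad (0.20), Hspb7 (0.26) and Cavin4 (0.26). Their Pearson r with that profile was 0.988 to 0.997 over 8 arrays, which share the contrast of cut and uncut nerve, so no p is given. Dusp13 read 9.40 and 10.36 in mutant cut against 6.70 and 6.48 in mutant uncut nerve, and 8.76 and 10.19 in control cut against 6.32 and 6.71 in control uncut nerve. Like the members it was higher in the second pool of cut nerve in both genotypes. As it was picked by its likeness over these same arrays, nothing is read from that. Of the members themselves Myog lay nearest to their mean profile (distance 0.44) and Chrnd farthest (1.48, r = 0.770).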

How the data were processed

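The authors deposited log2 values (a single value for a probe set on each array) made with RMA and the package affy, per the submitters' processing notes. RMA corrects background, equalises the arrays' distributions and summarises probes; for versions, scan dates and detection calls, not given in the sources used here. Dim probe sets have their differences compressed by it. Array medians lay between 6.59 and 6.65, and the number of arrays limits the precision.

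Groups came from the sample titles. Symbols came from the platform annotation: 34958 probe sets had 1 symbol, 932 several and 9211 none, and 34754 of the first matched a current gene number. Probe sets above their array's median on at least 2 arrays were kept, and a gene was read on whichever kept probe set had the highest mean, which left 12093 genes (64 control probe sets excluded). With R 4.3.3 and limma 3.58.1, 1 mean per group was fitted to 8 arrays (4 residual and 3.59 prior degrees of freedom). Genes were called at a two-sided Benjamini-Hochberg adjusted p under 0.05 over all genes, and every adjusted p is limma's. The fit was checked on simulated data.

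Members and lists were chosen with earlier results of these data known. The text names all members, Chrne, Jun, up to 4 called genes of each list per injury comparison with the highest absolute change, and the 5 genes most like the members. The other genes of the denervation signalling and atrophy list were named besides. Of the 14 lists, those without a probe set above the filter are given by their levels. Alternatives were other filters, probe set rules, scalings, weights and variance settings, a replicate block, the 4 arrays compared alone and each array left out.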

Additional observations from a re-analysis of the deposited data

How the results depend on the processing

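Only 2 arrays a group limit what can be called, and dim uncut values understate differences. With probe sets filtered at the 75th percentile, 3 of 10 members dropped out and the median of those left was 5.14 in mutant and 4.66 in control nerve. The 3 lost (Chrng, Chrnd and Myod1) have differences below the median of the 10 in both genotypes. Leaving out 1 array put the members' median in control nerve between 2.16 (without control cut replicate 2) and 3.86 (without control cut replicate 1), and in mutant nerve between 2.94 and 3.50. List genes called then numbered 43 to 71 in mutant nerve (69 with all arrays, lowest without mutant cut replicate 2) and 42 to 68 in control nerve (66 with all arrays, lowest without control cut replicate 2), and 0 in cut nerve between genotypes. With the mean of probe sets 1 list gene, Ccn1, was called between genotypes in cut nerve (0.52, adjusted p = 0.0494, against 0.46 and 0.352), and the Runx1 difference was -0.065.

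With 1 array left out, the difference between mutant and control cut nerve changed sign in part of the settings for each member. It ran from -0.46 to 0.97 for Chrna1, -0.41 to 0.73 for Chrnb1, -0.54 to 0.67 for Chrng, -0.63 to 0.11 for Chrnd, -1.21 to 1.43 for Myog, -0.10 to 1.23 for Myod1, -0.26 to 1.05 for Myf6, -0.99 to 1.91 for Ankrd1, -0.79 to 1.05 for Sln and -0.34 to 0.42 for Runx1. The lowest adjusted p in any setting was 0.089, for Myog. The cause was not tested.

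Same-numbered arrays of different groups deviated together with r = 0.023 to 0.340, below 0.1 in 1 of 6 group pairs, and were not treated as paired. Within a genotype, where cut and uncut pools may share animals, r was 0.153 in mutant and 0.179 in control nerve. With the replicate block the members' medians were 3.21 in mutant and 3.01 in control nerve, 71 list genes were called in each, and 0 members were called between genotypes or for the interaction. Over all genes it called 174 between genotypes in cut nerve (132 without it), 4 in uncut nerve (0 without it) and 25 for the interaction (20 without it). Among the single genes followed under each alternative, which are not all list genes, it changed only the call of Myh3 in control nerve, which then passed. Of 2225 alternative values of single genes, 2076 kept their direction and call or moved within 1 SD, 99 lost a call, 11 gained one, 20 moved and 19 changed sign.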
